A study of Mus musculus with 8 samples.

Results

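Hedgehog reception and its transcriptional arm were followed through 10 genes chosen by symbol from the 24909 listed in a mouse RNA-seq count table: the receptor genes Ptch1 and Smo, the co-receptors Gas1, Cdon and Boc, and the GLI arm made of Gli1, Gli2, Gli3, Sufu and Kif7. All 10 passed the filter on low counts, among 12879 genes tested. The cells were ASZ001, a mouse basal cell carcinoma line. They carried a vector switched on by doxycycline, which was empty in 1 group and encoded c-FOS, a partner of JUN in AP-1, in the other 3. All cells received doxycycline for 24 h. Cells with the c-FOS vector were also given DMSO vehicle, afatinib at 5 uM or UO126 at 10 uM for 6 h. The empty-vector label names doxycycline alone, so induction of c-Fos and exposure to vehicle cannot be told apart in any comparison with the empty vector. No group held empty-vector cells with an inhibitor. An inhibitor effect that depends on c-Fos therefore cannot be told from one that does not. Afatinib blocks the kinases of the EGFR family and UO126 blocks MEK1 and MEK2, the kinases that activate ERK. The series title sets the work in a change of basal cell carcinoma towards squamous cell carcinoma. Each of the 4 groups held 2 libraries from this single line, and no label says that they came from separate cultures, so p-values reflect library-to-library spread alone, and that spread may be technical.

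Hedgehog ligands bind PTCH1 and the co-receptors GAS1, CDON and BOC, and binding relieves the hold that PTCH1 has on the membrane protein SMO. Active SMO gathers at the primary cilium and releases GLI2 and GLI3 from SUFU, with the kinesin KIF7 organising the ciliary tip, and Gli1 and Ptch1 are themselves target genes that the pathway turns on. In basal cell carcinoma the pathway is switched on without ligand, most often through loss of PTCH1. ASZ001 was established from a tumour of a mouse heterozygous for Ptch1, so a Ptch1 count here does not separate an intact transcript from one of a disrupted allele.

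Total counts ran from 17901974 to 23126048 per library, and the ribosomal RNA gene Rn45s took 1.62% to 4.08% of them. Fos, the induced gene, was at 40.6 and 50.5 CPM (counts-per-million, scaled for library size) in the empty vector and between 813 and 1163 CPM in the 6 c-Fos libraries. Relative to DMSO it differed by -0.06 ± 0.080 on the log2 scale under afatinib (edgeR adjusted p = 0.565) but fell by 0.44 under UO126 (SE 0.080, adjusted p = 0.00148). The Fos count was thus not at the same level in the 3 c-Fos groups. This count does not separate transcripts of the vector from those of the cells' own Fos gene. Dusp6, an ERK target gene, fell by 2.73 on the log2 scale under afatinib and fell by 1.98 under UO126 (edgeR adjusted p = 4.94e-10 and 1.86e-08). The keratinocyte genes Krt5, Krt14 and Trp63 were abundant in all groups, with group means of at least 7099, 5477 and 131 CPM. The summed level of 12 markers of basal keratinocytes and basal cell carcinoma was 19650 to 19660 CPM in the empty vector, 21650 to 22230 with c-Fos and DMSO, 18980 to 19170 under afatinib and 22150 to 23250 under UO126. Krt5 and Krt14, at 8596 and 5477 CPM in the empty vector, made up most of the sum there. None of the 12 was at 0 in all libraries, but Lgr5 was at 0 in 5 and had at most 1.5 counts. Of the 11 tested, 4 were higher and 2 lower with c-Fos at an edgeR adjusted p under 0.05, which is 54.5% beside 42.2% of all genes. The integrin genes Itga6 (1.41 ± 0.067, SE) and Itgb4 (0.70), the adhesion gene Epcam (0.79) and Krt14 (0.48) rose, and the epidermal transcription factor gene Trp63 (-0.75 ± 0.089) and Krt17 (-0.57) fell. Under afatinib 1 rose and 5 fell (54.5% called beside 42.7% of all genes), and under UO126 2 rose and 3 fell (45.5% beside 28.6%). With each library left out in turn, 1 or 2 rose and 3 to 5 fell under afatinib. Under UO126 1 or 2 rose and 2 to 4 fell. The summed level of 12 fibroblast markers was 5.76 to 5.88 CPM in the empty vector, 8.82 to 9.60 with c-Fos and DMSO, 7.69 to 7.93 under afatinib and 10.0 to 11.4 under UO126. Of the 12, 2 were at 0 in all 8 libraries, Lum and Thy1. Within that sum Col1a2 was at 0.856 ± 0.231 CPM (SD, n = 2) in the empty vector and 6.41 ± 1.14 with c-Fos and DMSO, while Dcn was at 2.57 ± 0.079 and 0.717 ± 0.371. The part of these markers, and of the lower Fos level under UO126, in the results below was not tested.

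In c-Fos cells with DMSO the ligand-binding co-receptors Gas1, Cdon and Boc stood at 31.0%, 48.0% and 55.2% of their empty-vector levels, and Gli1 and Gli2 at 57.3% and 56.2%. Of the 10 genes, 7 fell, 1 rose and 2 did not pass the test, against 42.2% of all genes called in either direction, 20.7% of them lower and 21.5% higher. Gli3 was the gene that rose. In such bulk RNA, fewer cells expressing a gene and less RNA of it per cell cannot be told apart. The median log2 change of the 10 was -0.59, beside -0.01 over all genes tested. The libraries of the 2 groups did not overlap for any of the 10 genes, which was also true of 74.8% of all genes. The test was edgeR's quasi-likelihood test over all 8 libraries with Benjamini-Hochberg adjustment over all genes, and a gene was called at an adjusted p under 0.05.

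**Figure D1:**
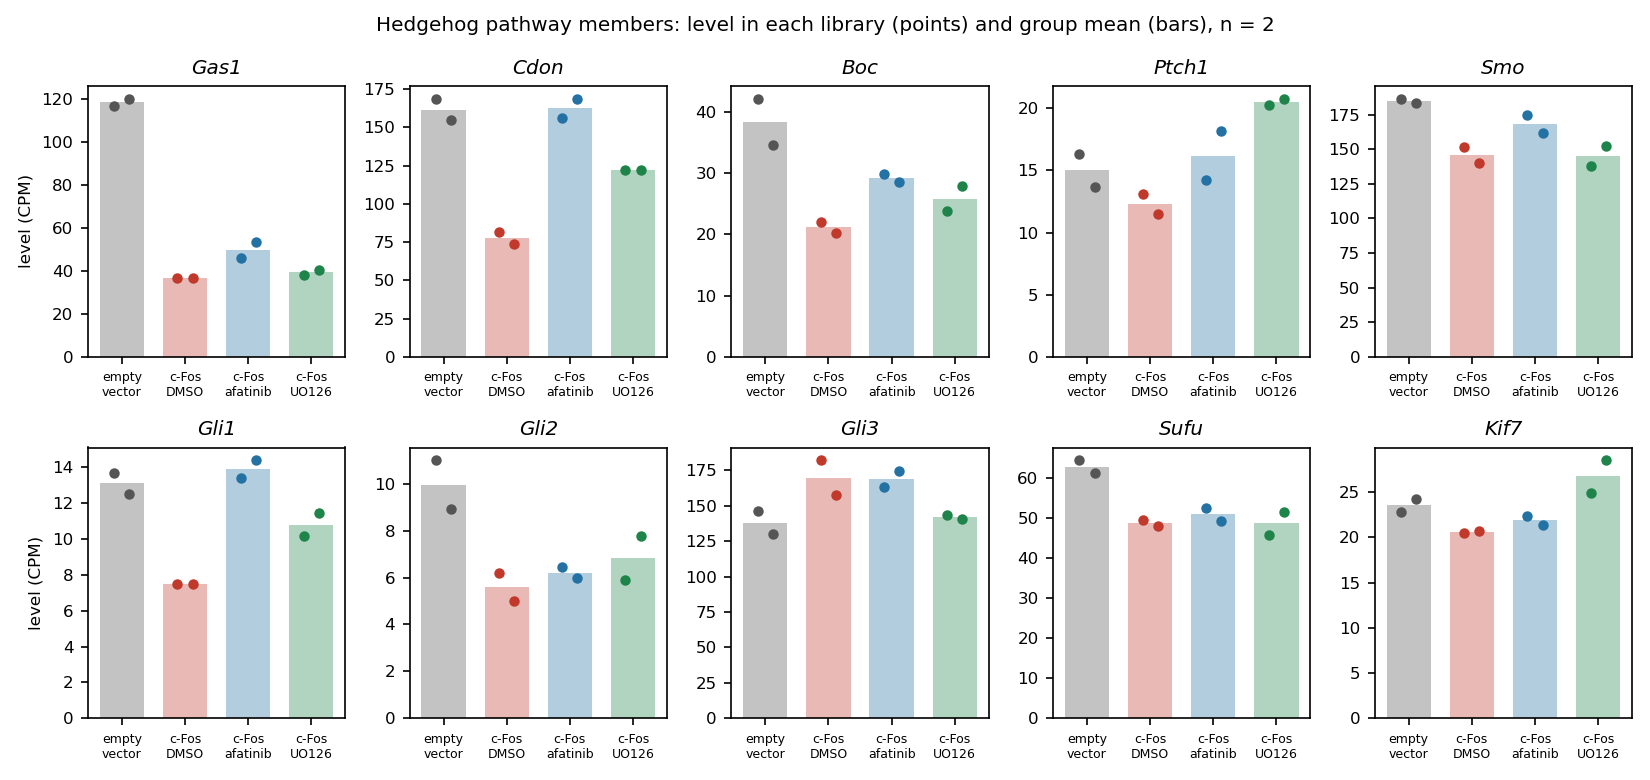
Level of each gene in CPM (vertical axes, each starting at 0) in the 4 groups (horizontal axes); points are libraries and bars are means of 2 libraries. Gas1 stays below 54 CPM in all c-Fos libraries against 117 and 120.2 CPM in the empty vector, while Cdon and Gli1 overlap the empty vector under afatinib.

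Gas1 encodes a GPI-anchored surface protein that binds Hedgehog ligand together with PTCH1. Its level was 117 and 120.2 CPM in the empty-vector libraries, 37.0 and 36.6 with c-Fos and DMSO, 46.0 and 53.6 under afatinib, and 38.1 and 40.7 under UO126. All 6 c-Fos libraries were thus far below both empty-vector libraries. The log2 change with c-Fos was -1.69 ± 0.081 (SE; edgeR adjusted p = 2.35e-09). Cdon encodes an immunoglobulin and fibronectin repeat protein of the cell surface with the same ligand-binding function. It was at 168 and 155 CPM in the empty vector, 81.4 and 73.7 with DMSO, 156 and 169 under afatinib, and 122.2 and 121.8 under UO126. The afatinib libraries overlapped the empty-vector ones, and the UO126 libraries lay between the DMSO and empty-vector ones. The c-Fos change of Cdon was -1.06 ± 0.073 (edgeR adjusted p = 8.44e-08). A fall of at least 2-fold, seen for Gas1 and Cdon, was called for 3.98% of all genes. Boc, the paralogue of Cdon, was at 42.2 and 34.7 CPM in the empty vector and 22.1 and 20.3 with DMSO (log2 change -0.86 ± 0.109, edgeR adjusted p = 3.31e-05).

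Gas1 and Cdon, the genes of the set that fell at least 2-fold, are shown here by the 250 bases before their annotated start, from RefSeq on GRCm38.p6, which is a later build than the mm9 of the submitters' processing notes. The Gas1 window is chr13:60177536-60177785 on the minus strand (58.8% G and C) and the Cdon window is chr9:35451826-35452075 on the plus strand (42.8% G and C).
Gas1: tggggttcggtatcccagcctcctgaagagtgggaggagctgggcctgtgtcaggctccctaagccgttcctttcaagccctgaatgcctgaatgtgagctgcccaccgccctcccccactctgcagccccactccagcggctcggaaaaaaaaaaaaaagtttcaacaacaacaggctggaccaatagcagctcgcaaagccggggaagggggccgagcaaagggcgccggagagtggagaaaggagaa
Cdon: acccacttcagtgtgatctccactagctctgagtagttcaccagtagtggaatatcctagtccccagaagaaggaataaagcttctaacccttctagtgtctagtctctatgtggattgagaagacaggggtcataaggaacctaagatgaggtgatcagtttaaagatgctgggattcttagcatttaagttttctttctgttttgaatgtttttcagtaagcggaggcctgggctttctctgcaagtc
Neither holds the GLI site TGGGTGGTC, the AP-1 site TGANTCA or the CRE-type site TGACGTCA on either strand, so no letters are in capitals. The search covered 250 bases before to 50 after the start, where 0 of the 8 promoters found for the set (Ptch1, Smo, Gas1, Cdon, Gli2, Gli3, Sufu and Kif7) held any of them. Among all 32851 promoters of that length 0.253% held the GLI site, 7.81% the AP-1 site and 1.79% the CRE-type site. These are statements about letters in a short window and not about binding.

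Both inhibitors were compared with the same 2 DMSO libraries, which also served the comparison with the empty vector, so the 3 comparisons are not independent and their values are set side by side only. Under afatinib 6 of the 10 genes rose and none fell (42.7% of all genes called, 21.2% higher and 21.5% lower). The 6 were Cdon, Gli1, Boc, Gas1, Ptch1 and Smo, and their median with the other 4 was 0.30 on the log2 scale, beside 0.00 over all genes. Under UO126 4 genes rose, Ptch1, Cdon, Gli1 and Kif7, and Gli3 fell (28.6% of all genes called, 13.9% higher and 14.7% lower), with a median of 0.28. The libraries did not overlap for 7 genes under afatinib, all higher, beside 73.4% of all genes, and for 7 under UO126, 6 higher and 1 lower, beside 62.3%.

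**Figure D2:**
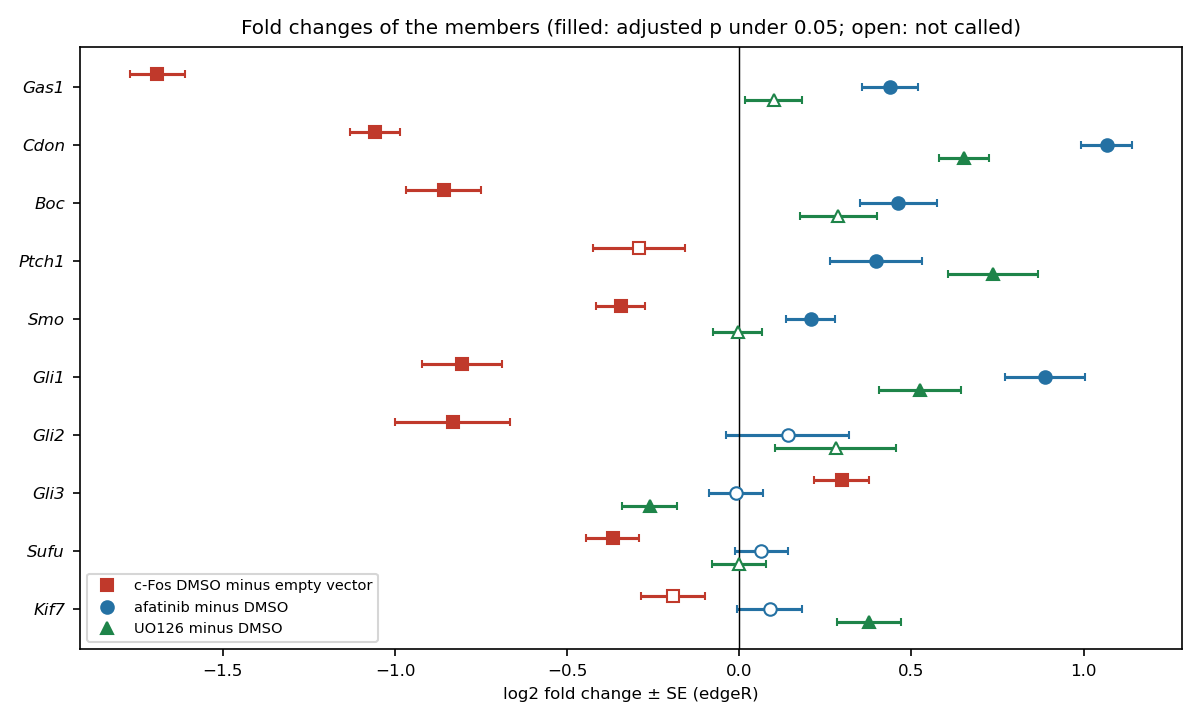
Log2 fold change (horizontal axis) with its standard error for each gene (vertical axis) in 3 comparisons that share the DMSO libraries; filled symbols passed an edgeR adjusted p under 0.05. Gas1 lies at -1.69 with c-Fos and at 0.44 under afatinib, while Cdon lies at -1.06 and 1.07.

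Among the co-receptors all 3 rose under afatinib. Cdon rose by 1.07 ± 0.074 (edgeR adjusted p = 1.38e-07), Boc by 0.46 ± 0.111 (adjusted p = 0.00456) and Gas1 by 0.44 ± 0.083 (adjusted p = 8.01e-04). Afatinib thereby left Cdon at 100.6% of its empty-vector level, Boc at 76.0% and Gas1 at 42.0%. Under UO126 Cdon rose by 0.65 ± 0.074 (adjusted p = 2.98e-05). Boc was at 23.9 and 27.9 CPM under UO126, a log2 difference of 0.29 ± 0.112 from DMSO that was not called (adjusted p = 0.0721). It was called without UO126 replicate 1 (0.41, adjusted p = 0.00803) and without empty-vector replicate 2 (0.30, adjusted p = 0.0478). Gas1 differed by 0.10 under UO126 (95% interval -0.08 to 0.28, adjusted p = 0.403), and its libraries sat at 33.2% of the empty-vector level on average.

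The balance of the co-receptors shifted with these changes. Per kilobase of the deposited gene length, which allows levels of different genes to be set against each other, the 3 together came to 69.1 ± 1.84 CPM per kilobase (SD, n = 2) in the empty vector, 27.4 ± 1.13 with c-Fos and DMSO, 45.1 ± 2.70 under afatinib and 35.4 ± 1.18 under UO126. Gas1 made up 54.9% of that sum in the empty vector and 43.0% with DMSO. Its share was 35.2% under afatinib and 35.6% under UO126. Cdon made up 32.5% in the empty vector, 39.4% with DMSO, 50.1% under afatinib and 47.9% under UO126. Per kilobase, Cdon was thus above Gas1 in both inhibitor groups only. This order depends on the deposited lengths. In CPM Cdon was above Gas1 in all 4 groups, at 161.5 against 118.7 in the empty vector and 77.6 against 36.8 with DMSO. The CPM values were 162.5 against 49.8 under afatinib and 122 against 39.4 under UO126. The Boc share stayed between 12.6% and 17.6% in the group means.

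Ptch1, the ligand receptor and a GLI target, was a weakly counted gene of the set, with 201.5 to 454.5 counts per library. It was at 16.4 and 13.7 CPM in the empty vector, 13.1 and 11.5 with DMSO, 14.2 and 18.2 under afatinib, and 20.3 and 20.8 under UO126. The UO126 libraries were the highest of the 8 and the DMSO libraries the lowest. Its difference with c-Fos, -0.29 ± 0.134, was not called (edgeR adjusted p = 0.0984), although it was in a fit of the 4 libraries compared (adjusted p = 0.0318) or with no filter on low counts (adjusted p = 0.0298). Ptch1 rose by 0.74 ± 0.130 under UO126 (adjusted p = 9.96e-04) and by 0.40 ± 0.134 under afatinib (adjusted p = 0.0286). The afatinib call was lost without DMSO replicate 2 (0.33, adjusted p = 0.17) or without afatinib replicate 2 (0.23, adjusted p = 0.263).

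Smo encodes the signal-transducing membrane protein and had the highest level per kilobase of the 10 genes in every group. It was at 186 and 183 CPM in the empty vector, 151 and 139.7 with DMSO, 175 and 162 under afatinib, and 138 and 152 under UO126. Smo fell by 0.34 on the log2 scale with c-Fos (SE 0.071, edgeR adjusted p = 0.00163). It rose by 0.21 ± 0.072 under afatinib (adjusted p = 0.0311), a call lost without DMSO replicate 2 (0.17, adjusted p = 0.183) or without afatinib replicate 1 (0.17, adjusted p = 0.16). Under UO126 the log2 difference was 0.00 (95% interval -0.16 to 0.15). The ratio of Smo to Ptch1 per kilobase was 22.8 ± 2.60 (SD, n = 2) in the empty vector, 21.8 ± 0.823 with DMSO, 19.5 ± 4.41 under afatinib and 13.0 ± 0.699 under UO126. The ratio under UO126 was below that of the other groups in both libraries.

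Gli1, an activator whose own transcription follows pathway activity, was at 13.7 and 12.5 CPM in the empty vector, 7.51 and 7.50 with c-Fos and DMSO, 13.4 and 14.4 under afatinib, and 10.2 and 11.4 under UO126. The DMSO libraries were the lowest, the UO126 libraries intermediate, and the afatinib and empty-vector libraries overlapped. The c-Fos change was -0.81 ± 0.117 (edgeR adjusted p = 1.01e-04). Gli1 rose by 0.89 ± 0.116 under afatinib (adjusted p = 4.2e-05) and by 0.53 ± 0.119 under UO126 (adjusted p = 0.00505). These values rest on 132.5 to 315.5 counts per library. On the mouse GRCm38 annotation Gli1 overlaps Arhgap9, to which 1.5 to 5 counts per library were assigned. The library kit does not mark strand, so reads from sequence that overlapping genes share cannot be told apart. Overlap was taken from whole gene spans, and whether exons are shared was not examined. Smo overlaps a pseudogene, and Cdon, Boc, Gli2 and Gli3 overlap non-coding RNA genes, whose counts were not examined.

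Gli2, the main activator upstream of Gli1, had the lowest level per kilobase of the set in every group. It was at 10.99 and 8.93 CPM in the empty vector, 6.20 and 5.00 with DMSO, 6.43 and 5.96 under afatinib, and 5.89 and 7.75 under UO126, so the 6 c-Fos libraries were all below the empty vector and overlapped among themselves. Gli2 fell by 0.83 on the log2 scale with c-Fos (SE 0.167, edgeR adjusted p = 0.0013). Its differences under afatinib, 0.14 (95% interval -0.24 to 0.53), and under UO126, 0.28 (-0.10 to 0.66), were not called. The UO126 difference was called without UO126 replicate 1 (0.48, adjusted p = 0.0408).

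Gli3 encodes the GLI protein that is mainly processed to a repressor. It was at 146 and 130.3 CPM in the empty vector, 182 and 158 with DMSO, 163 and 175 under afatinib, and 143 and 140.5 under UO126. The DMSO and afatinib libraries were above the empty-vector ones, and the UO126 libraries lay within the empty-vector range. Gli3 rose by 0.30 ± 0.080 with c-Fos (edgeR adjusted p = 0.00846), a call lost without empty-vector replicate 2 (0.22, adjusted p = 0.104) or without DMSO replicate 1 (0.21, adjusted p = 0.0895). It differed by -0.01 under afatinib (95% interval -0.18 to 0.16) and fell by 0.26 under UO126 (SE 0.080, adjusted p = 0.0255), which was not called without DMSO replicate 1 (-0.15, adjusted p = 0.279).

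Set against each other per kilobase, Gli3 exceeded Gli1 by 4.57-fold ± 0.082 (SD, n = 2) in the empty vector and by 9.82-fold ± 0.984 with c-Fos and DMSO. The ratio was 5.27 ± 0.013 under afatinib and 5.72 ± 0.548 under UO126, and both DMSO libraries, at 10.5 and 9.12, were above all the others. The ratio of Gli3 to Gli2 was 11.1 ± 0.738 in the empty vector, 24.2 ± 1.24 with DMSO, 21.8 ± 2.22 under afatinib and 16.9 ± 3.47 under UO126. These ratios describe transcripts and not the full-length and processed proteins.

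Sufu, whose product holds GLI proteins in the cytoplasm, was at 64.3 and 61.2 CPM in the empty vector and between 45.7 and 52.4 CPM in all 6 c-Fos libraries. It fell by 0.37 on the log2 scale with c-Fos (SE 0.077, edgeR adjusted p = 0.00174) and differed by 0.06 under afatinib (95% interval -0.10 to 0.23) and 0.00 under UO126 (-0.17 to 0.17). Kif7 was at 22.8 and 24.3 CPM in the empty vector, 20.5 and 20.7 with DMSO, 22.4 and 21.4 under afatinib, and 25.0 and 28.5 under UO126. Its c-Fos difference, -0.19 ± 0.094, was not called (adjusted p = 0.116), nor was that under afatinib, 0.09 (95% interval -0.12 to 0.29). Kif7 rose by 0.38 ± 0.093 under UO126 (adjusted p = 0.00798). Kif7 overlaps Ticrr, a gene of DNA replication with 642 to 1188.5 counts per library, whose own differences were -0.01 with c-Fos, -0.53 under afatinib and -0.24 under UO126.

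**Figure D3:**
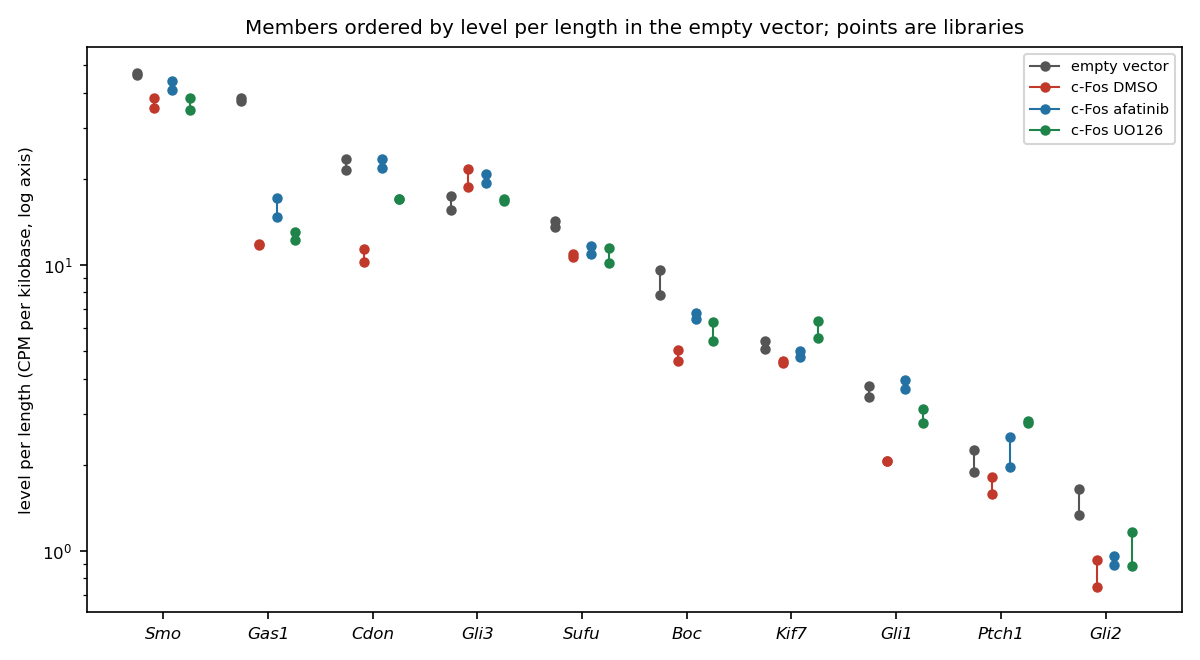
Level per kilobase of gene length (vertical axis, log scale, CPM per kilobase) for each gene (horizontal axis), ordered by the empty-vector mean; points are libraries, joined within a group. Smo is highest and Gli2 lowest in all 4 groups, and Gas1 moves from 37.9 to 11.8 CPM per kilobase between the empty vector and c-Fos with DMSO.

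The order of levels per kilobase in the empty vector was Smo (46.6 CPM per kilobase), Gas1 (37.9), Cdon (22.4), Gli3 (16.4), Sufu (13.9), Boc (8.72), Kif7 (5.22), Gli1 (3.59), Ptch1 (2.06) and Gli2 (1.49), with no overlap between neighbours. With c-Fos and DMSO Gli3 moved up to the second place at 20.2 and Gas1 went down to 11.8, and the libraries of Cdon and Sufu, at 10.8 each, overlapped. Under afatinib Cdon held the second place at 22.6, ahead of Gli3 at 20.1, and Gas1 followed at 15.9, again without overlap of neighbours. Under UO126 the pairs Cdon and Gli3, Kif7 and Boc, and Gli1 and Ptch1 overlapped. Averaged over the 8 libraries, Smo was at percentile 83.5 of all tested genes per kilobase, Gas1 at 65.7, Gli3 at 63.9 and Cdon at 63.6, while Gli1 was at 24.8, Ptch1 at 20.9 and Gli2 at 14.2.

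Afatinib and UO126 were also compared directly, each at its single dose. Fos was itself higher under afatinib here, by 0.37 ± 0.080 (edgeR adjusted p = 0.00837). The ERK target gene Dusp6 was lower under afatinib, by a log2 difference of -0.75 ± 0.105 (edgeR adjusted p = 4.64e-04). The part of either difference in the values that follow was not tested. Cdon was higher under afatinib by 0.41 ± 0.071 (edgeR adjusted p = 0.00208), Gas1 by 0.34 ± 0.081 (adjusted p = 0.0137), Gli1 by 0.36 ± 0.107 (adjusted p = 0.0375) and Gli3 by 0.25 ± 0.079 (adjusted p = 0.04996), and Kif7 was lower by a log2 difference of -0.29 ± 0.090 (adjusted p = 0.0484). That made 4 genes higher and 1 lower of 10, beside 14.3% of all genes called, 7.14% in each direction. Ptch1 differed by -0.34 (95% interval -0.61 to -0.07, adjusted p = 0.0845) and Smo by 0.21 (0.06 to 0.37, adjusted p = 0.0621), and neither was called, nor were Boc (0.18), Gli2 (-0.14) and Sufu (0.06). Of these calls Cdon was kept under each alternative tried. The number called dropped from 5 to 1 without afatinib replicate 2, where Gas1 was at 0.23 (adjusted p = 0.159), to 2 without afatinib replicate 1 or empty-vector replicate 1, and to 3 without DMSO replicate 1 or 2.

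Against the empty vector, c-Fos cells given afatinib had 4 genes lower and 1 higher (45.1% of all genes called, 23.4% lower and 21.7% higher). Gas1 was lower by a log2 difference of -1.25 ± 0.078 (edgeR adjusted p = 2.54e-08), Gli2 by -0.69 ± 0.160, Boc by -0.40 ± 0.104 and Sufu by -0.30 ± 0.076, and Gli3 was higher by 0.29 ± 0.079 (adjusted p = 0.00309, 0.00694, 0.00502 and 0.00889 in that order). Cdon (0.01, 95% interval -0.14 to 0.16), Gli1 (0.08, -0.14 to 0.31) and Ptch1 (0.11, -0.17 to 0.38) were not called, nor were Smo (-0.14) and Kif7 (-0.10). The 5 calls became 2 without empty-vector replicate 1, where Boc, Gli2 and Sufu were lost, and 2 without afatinib replicate 2, where Boc, Sufu and Gli3 were lost.

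Under UO126, 6 genes were lower than in the empty vector and 1 was higher (37.7% of all genes called, 19.4% lower and 18.3% higher). Gas1 was lower by a log2 difference of -1.59 ± 0.079 (edgeR adjusted p = 3.66e-09), Boc by -0.57 ± 0.105, Cdon by -0.40 ± 0.071, Smo by -0.35 ± 0.071, Sufu by -0.37 ± 0.076 and Gli2 by -0.55 ± 0.156 (adjusted p = 7.41e-04, 5.27e-04, 0.00154, 0.00174 and 0.0132 in that order). Ptch1 was higher by 0.45 ± 0.124 (adjusted p = 0.012), and Gli1 (-0.28, adjusted p = 0.0552), Gli3 (0.04) and Kif7 (0.19) were not called. The Ptch1 call was lost without empty-vector replicate 2 (0.34, adjusted p = 0.113) and the Gli2 call without empty-vector replicate 1 (-0.36, adjusted p = 0.194) or UO126 replicate 1 (-0.35, adjusted p = 0.0892). Gli1 was called without UO126 replicate 2 (-0.34, adjusted p = 0.0444) and Kif7 without UO126 replicate 1 (0.30, adjusted p = 0.0204).

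The wider pathway was read through 5 lists outside the 10 genes. Transport genes of the primary cilium, where SMO and GLI proteins traffic, were lower with c-Fos in 13 of 22 and higher in none, which is 59.1% lower beside 20.7% of all genes tested. Their median log2 change was -0.32, beside -0.01 over all genes. The intraflagellar transport genes Ift122 (-0.84 ± 0.084, edgeR adjusted p = 3.34e-06) and Wdr19 (-0.84 ± 0.079, adjusted p = 1.95e-06) and the ciliary trafficking gene Tulp3 (-0.83 ± 0.065, adjusted p = 2.72e-07) fell most. Under afatinib 12 of the 22 rose and none fell (median 0.32; 54.5% higher beside 21.2% of all genes), led by Wdr19 (1.04 ± 0.079), Tulp3 (0.64 ± 0.065) and Rpgrip1l (0.54 ± 0.098), a transition zone gene. Under UO126 12 rose and none fell (median 0.28; 54.5% beside 13.9%), led by Wdr19 (0.83 ± 0.079), the dynein gene Dync2h1 (0.68 ± 0.124) and Ift88 (0.64 ± 0.139). The counts ran from 9 to 15, from 8 to 15 and from 9 to 13 when each library was left out in turn, and the lists share no gene with the 10.

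**Figure D4:**
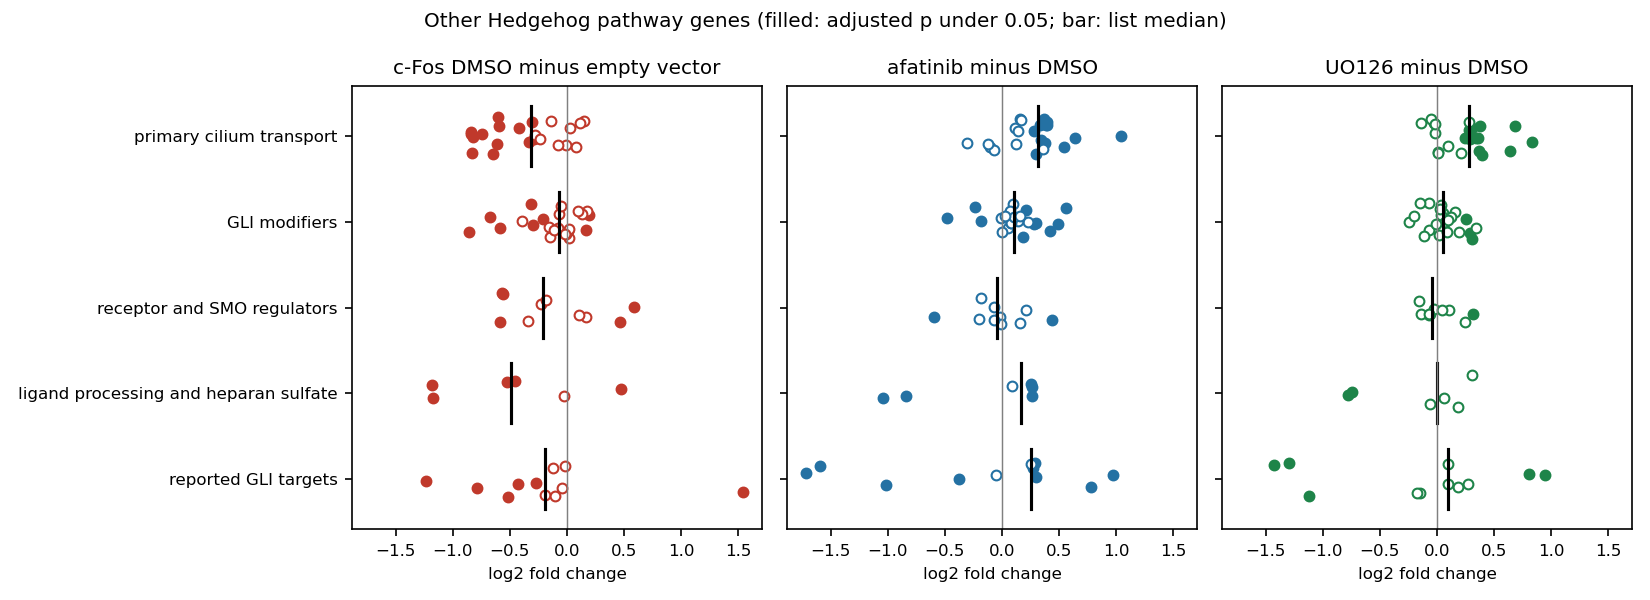
Log2 fold change (horizontal axes) of the tested genes of 5 pathway lists (vertical axis) in 3 comparisons that share the DMSO libraries; filled points passed an edgeR adjusted p under 0.05 and the bar is the list median. Of the 22 cilium genes 13 lie lower with c-Fos as called genes, and 12 lie higher with each inhibitor.

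Of 23 genes whose products phosphorylate, ubiquitylate or otherwise modify GLI proteins, 6 fell and 2 rose with c-Fos (median -0.07). These made 34.8% of the list called, beside 42.2% of all genes, and the shares were 47.8% beside 42.7% under afatinib and 13.0% beside 28.6% under UO126, all near or under the background, so the counts of this list are given as a description. Stk36, a kinase gene of the pathway, was at -0.86 ± 0.148 (edgeR adjusted p = 4.13e-04), the kinase gene Dyrk2 at -0.67 ± 0.095 (adjusted p = 8.27e-05) and Btrc, a subunit gene of the ubiquitin ligase that processes GLI3, at -0.59 ± 0.092 (adjusted p = 1.89e-04). The 2 that rose, the kinase genes Csnk1d (0.20) and Prkaca (0.17), were both lost when either empty-vector or either DMSO library was left out, and 1 of them when either afatinib library was. Under afatinib 8 rose and 3 fell (median 0.11), among them Stk36 (0.56 ± 0.153), the kinase gene Gsk3b (0.49 ± 0.078) and the ubiquitin ligase gene Itch (0.42 ± 0.087), and, lower, Ulk3 (-0.48 ± 0.122), Hdac2 (-0.24 ± 0.075) and Prkar1a (-0.18 ± 0.069). The 8 became 3 without DMSO replicate 1 and 5 without DMSO replicate 2, empty-vector replicate 1, afatinib replicate 1 or afatinib replicate 2; the 3 became 1 without DMSO replicate 1, DMSO replicate 2 or afatinib replicate 2 and 0 without afatinib replicate 1. Under UO126 3 rose and none fell (median 0.05), namely Btrc (0.31 ± 0.093), Itch (0.29 ± 0.087) and Gsk3b (0.25 ± 0.078), and none was called higher without DMSO replicate 1 or 2, while 4 were called lower without UO126 replicate 1 and 1 without UO126 replicate 2 or DMSO replicate 1.

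Hedgehog ligand genes were near absent. Shh and Disp1, which releases ligand from the cell, had 0 counts in all 8 libraries, Ihh had 1 to 3 and Dhh 0 or 1. Of 14 genes for ligands, their processing and their heparan sulfate partners 6 were tested, and with c-Fos 4 of them fell and 1 rose (median -0.49). The share of the 6 called was 83.3% with c-Fos, 83.3% under afatinib and 33.3% under UO126, beside 42.2%, 42.7% and 28.6% of all genes. The glypican genes Gpc4 (-1.18 ± 0.061, edgeR adjusted p = 5.43e-09) and Gpc3 (-1.17 ± 0.192, adjusted p = 2.85e-04) and Hhat, which palmitoylates the ligand (-0.53 ± 0.099, adjusted p = 8e-04), fell, and Ext1, a heparan sulfate polymerase gene, rose by 0.47 ± 0.057 (adjusted p = 2.09e-05). Relative to DMSO, Hhat was at -1.04 ± 0.114 under afatinib and -0.78 ± 0.110 under UO126, and Ext1 at -0.84 ± 0.058 and -0.74 ± 0.058, all 4 called lower. Under afatinib Gpc4 (0.26), Gpc6 (0.26) and Ndst1 (0.25) rose, 3 in all beside the 2 that fell, and 1 in place of 3 without DMSO replicate 2 (median 0.17). Under UO126 none rose and 2 fell (median 0.00), with 1 called higher without UO126 replicate 2.

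Of 14 other genes acting at the receptor or on SMO 10 were tested, and with c-Fos 3 fell and 2 rose (median -0.21). The share called was 50% with c-Fos, 20% under afatinib and 10% under UO126, beside 42.2%, 42.7% and 28.6% of all genes, so it was near the background with c-Fos and below it with both inhibitors. The ciliary genes Evc (-0.57 ± 0.088) and Evc2 (-0.56 ± 0.099) were among those that fell, and the sterol synthesis gene Dhcr7 (0.59 ± 0.076) and the arrestin gene Arrb2 (0.47 ± 0.092) rose (edgeR adjusted p = 1.71e-04, 5e-04, 3.92e-05 and 0.00115 in that order), with 5 lower in place of 3 without UO126 replicate 1 or 2. Mgrn1, a ubiquitin ligase gene, rose by 0.44 ± 0.090 under afatinib and 0.31 ± 0.090 under UO126, and Dhcr7 fell by 0.59 under afatinib. That made 1 higher and 1 lower under afatinib (median -0.04) and 1 higher and 0 lower under UO126 (median -0.04). Under afatinib 4 were called higher without DMSO replicate 1, UO126 replicate 1 or UO126 replicate 2, and 2 without empty-vector replicate 1 or 2 or afatinib replicate 1. Under UO126 2 were called higher without UO126 replicate 1 and none without DMSO replicate 2.

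The classic output gene Hhip was not tested, with 1 count in a single library. Of 18 reported GLI target genes outside the set 11 were tested, and with c-Fos 5 fell and 1 rose (median -0.19). The share called was 54.5% with c-Fos, 81.8% under afatinib and 45.5% under UO126, beside 42.2%, 42.7% and 28.6% of all genes. The cyclin gene Ccnd1 was the riser, at 1.54 ± 0.063 (228 to 665 CPM in the group means, edgeR adjusted p = 5.76e-10). Foxl1 (-1.24 ± 0.294, from 1.64 to 0.694 CPM, adjusted p = 0.00418), Wnt5a (-0.79 ± 0.130, adjusted p = 2.87e-04) and the Wnt antagonist gene Sfrp1 (-0.51 ± 0.066, adjusted p = 3.4e-05) fell most. Under afatinib 5 rose and 4 fell (median 0.25). The apoptosis inhibitor gene Bcl2 (-1.72 ± 0.108) and the cyclin genes Ccnd1 (-1.60 ± 0.063) and Ccnd2 (-1.01 ± 0.060) led the falls, and Foxl1 (0.97 ± 0.306), Pdgfra (0.78 ± 0.284) and Foxm1 (0.30 ± 0.064) the rises. Under UO126 3 fell and 2 rose (median 0.09), namely Bcl2 (-1.43 ± 0.104), Ccnd1 (-1.30 ± 0.063), Ccnd2 (-1.12 ± 0.061), Foxl1 (0.94 ± 0.305) and Pdgfra (0.80 ± 0.282). Thus Ccnd1, Ccnd2 and Bcl2 were lower with each inhibitor, while Foxl1 and Pdgfra were higher with each, as was Gli1. With c-Fos, Ccnd2 (-0.43) and Bcl2 (-0.27) fell, as Gli1 did, and Ccnd1 rose. Foxl1 and Pdgfra were at low levels, 0.694 and 1.00 CPM with DMSO, 1.37 and 1.72 under afatinib, and 1.34 and 1.75 under UO126. Pdgfra is also in the fibroblast marker list and Sox9, at -0.37 under afatinib, in the keratinocyte one. The 5 higher under afatinib became 2 without DMSO replicate 2 and 3 without DMSO replicate 1, afatinib replicate 1 or afatinib replicate 2. The 2 higher under UO126 became none without DMSO replicate 1 or 2, and 1 without UO126 replicate 2 or any of the empty-vector and afatinib libraries.

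Genes with the most similar course across the 8 libraries were found by the root mean square difference of centred log2 CPM. The candidates were 9881 genes averaging at least 5 CPM, after symbols of predicted or unnamed transcripts were left out. For Gli1 they were Sash1 (0.056), Cds1 (0.070) and Sytl1 (0.074). For Cdon they were Filip1l (0.067), Cyp2j9 (0.078) and Itga2 (0.083), whose own log2 differences were -1.07, -1.01 and -1.03 with c-Fos and 1.06, 1.19 and 0.87 under afatinib. For Gas1 the nearest were farther off, at 0.102 for Acpp, 0.139 for Fam189a2 and 0.160 for Samd5, with c-Fos differences of -1.56, -1.58 and -1.80 and afatinib differences of 0.19, 0.42 and 0.74. For Ptch1 they were Atp8a1 (0.117), Gpsm1 (0.124) and Lama3 (0.130). None of these 12 is a gene of the set, and the distances are a description without a test.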

How the data were processed

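RNA from ASZ001 cells was sequenced in 8 libraries after TruSeq RNA library preparation, per the labels' protocols. TopHat, HOMER, DESeq2 and the build mm9 are named in the submitters' processing notes, without versions. The authors deposited estimated counts per gene symbol, in steps of 0.5, with a gene length in bases; no source used here says how the lengths were set. Counts were rounded, 26 symbols turned into dates were dropped from 24909, and genes were filtered with filterByExpr (at least 10 counts, 15 in total), leaving 12879. edgeR 4.0.16 in R 4.3.3 (limma 3.58.1) gave TMM-scaled CPM and a robust quasi-likelihood fit of the 4 groups (4 residual degrees of freedom, coefficient of variation 0.0596), adjusted by Benjamini-Hochberg over all genes tested. Error bars on log2 values are standard errors, and intervals are unadjusted. Depths of 17901974 to 23126048 counts per library limit the precision for genes of low count. DESeq2 1.42.0 was an alternative. In counts simulated for the c-Fos comparison over 12879 genes, 62.7% of 1.5-fold, 91.0% of 2-fold and 93.9% of 4-fold changes were recovered and 1.79% of calls were false. Simulations of the afatinib comparison with DMSO gave 82.1%, 91.0%, 98.5% and 5.24% in that order. Those of UO126 with DMSO gave 79.1%, 79.1%, 93.9% and 4.00%. Those of the direct contrast of the inhibitors gave 83.6%, 92.5%, 97.0% and 3.19%. Each simulation used the same mean profile and a common spread for all genes, and changed 200 genes drawn anew. That is a smaller share than the 42.2% of genes called with c-Fos in the data. Each size of change had 66 or 67 genes, so differences between the simulations may come from which genes were drawn.

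The 10 genes and all lists were chosen with earlier results of these data known. Beyond the 10, the genes named are, per list and direction, up to 3 called genes of largest change (some items are not reported here), Hhip, the check genes Fos and Dusp6, the 3 genes nearest to Gli1, Ptch1, Gas1 and Cdon, and genes that overlap a member on the annotation. Shh, Ihh, Dhh, Disp1, Sox9 and the marker genes named were added after their values were seen. Egfr, also a check gene, was at -0.95 with c-Fos (edgeR adjusted p = 5.36e-06). Library-size scaling by DESeq2 size factors moved the median change of all genes with c-Fos from -0.01 to 0.01.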

Additional observations from a re-analysis of the deposited data

How the results depend on the processing

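Calls were recomputed under 17 alternatives, 8 of which left out a library. Of 1020 log2 values of the 10 genes under them, 930 kept their direction and side of the threshold, 60 lost the call, 11 gained it and 19 changed direction, 0 of which were called before or after. Over the libraries left out, these last ran from -0.086 to 0.103 for Gli3 and from -0.075 to 0.082 for Smo (afatinib and UO126 against DMSO), from -0.319 to 0.072 for Gli2 and from -0.015 to 0.153 for Sufu (afatinib against UO126), and against the empty vector from -0.058 to 0.294 for Ptch1 and -0.027 to 0.101 for Cdon under afatinib and -0.029 to 0.153 for Gli3 under UO126. With a filter of 5 CPM Gli3 was at 0.001 under afatinib and Smo at 0.006 under UO126, and with no low-count filter Smo was at 0.001. With afatinib against UO126 the 5 genes called became 3 with the DESeq2 Wald test, 1 with only the 4 libraries compared, 2 with the replicate block, 3 without robust estimation, 7 with no low-count filter (Ptch1 and Smo gained, adjusted p = 0.0146 and 0.033) and 1 at an adjusted p under 0.01, and the causes were not tested. Leaving out each library gave 1 to 4 there, 2 to 5 with afatinib against the empty vector, 7 to 8 with c-Fos, 4 to 6 with afatinib, 4 to 7 with UO126 and 6 to 8 with UO126 against the empty vector. Where a group was left with 1 library, that library was assumed to vary like the other groups. The deviations of same-numbered libraries correlated only weakly, between -0.21 and 0.12 over the 6 pairs of groups. With 2 libraries a group, these values cannot show whether the replicate numbers mark a pairing. With the replicate block the Smo call with afatinib was also lost (adjusted p = 0.0519), 5 genes called in place of 6, and the counts of the other 4 comparisons did not change. Ranking the genes by CPM in place of CPM per kilobase moved 5 of 10 ranks in the empty vector and 6 or 7 in the other groups, by at most 2 places. With 2 libraries a group, the low counts of Gli2, Ptch1 and Gli1 leave standard errors of 0.105 to 0.179 on the log2 scale.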
